A study of Sus scrofa with 2 samples.

Results

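The sequences described here were the short reads of pig oocyte small RNA libraries, 18 to 20 nt long, with a GC content below 80%. They were defined by length and base composition, and no read count entered the rule. Earlier results of these data were known when the members were chosen. The control table held 61660 such sequences of 720572 in all, or 8.56%, and the knockdown table held 57160 of 689709, or 8.29%. Both tables together held 100969 such sequences of 1166705, or 8.65%. They carried 402563 reads in the control library and 415059 reads in the knockdown library.

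Both libraries came from Sus scrofa oocytes that had been matured in vitro for 42 h to metaphase II (MII), the stage at which an oocyte awaits fertilisation. The control library is labelled control, with no further word on what these oocytes received. The Dicer KD library came from oocytes given siRNA against Dicer at the germinal vesicle (GV) stage, before maturation, and is called the knockdown library below. Each group had 1 library, so values are set side by side, no test was made, and a difference is one between these libraries. The control library held 11836160 reads and the knockdown library 11982925 reads. Intervals are exact 95% intervals and cover counting error only, since reads copied by PCR, with no molecular identifiers, do not stand for single molecules. Ratios are knockdown to control throughout, with the interval after them. The labels do not say how many oocytes or animals went into a library. The tables hold small RNA only, so neither Dicer RNA nor oocyte marker genes could be checked.

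Dicer is the ribonuclease that cuts hairpin precursors into microRNAs (miRNAs) and long double-stranded RNA into small interfering RNAs (siRNAs), and it leaves products a little longer than the reads described here. An oocyte also holds PIWI-interacting RNAs (piRNAs), which are longer still and made without Dicer. In both classes the 5' end is held in a pocket of an Argonaute family protein and is often a U, written T in sequenced DNA, while the 3' end can be trimmed or extended. A read shorter than these classes can therefore be a trimmed form with the 5' end kept, a piece of rRNA or tRNA, or a siRNA or other RNA of that length, and its sequence alone does not say which.

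The following members carried most of what is described below, and are shown first for that reason. In the first set, each line gives the commonest longer sequence of 21 to 32 nt that begins with an abundant member. The member is in capitals and the bases that it lacks are in lower case.
Unnamed, most abundant in the control library: TTCCATGGTGCTGATTCTCTg
Unnamed, with a longer form of 24 nt: TCTGATTCAACCCTGAGCCTggca
Unnamed, with a longer form of 23 nt: TTCCATAGTGACTGTACCAactt
Unnamed, mostly short: TTGAATCTGGGCTCCAACTCa
Most abundant in the knockdown library: CATGTGGCTTAGAACATGtccg
5S rRNA, 3' end: ATACCGGGTGCTGTAGGCTTa
28S rRNA, interior: GGCGGCGACTCTGGACGCgagccgggccc

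The second set shows short members that began with the first bases of a conserved miRNA, because they differ in how far their short forms differed between the libraries. Bases 2 to 8, the seed with which a miRNA pairs to its targets, are in capitals. Each miRNA is identified only from its first bases, and no table of pig miRNAs was used.
miR-10b, 20 nt: tACCCTGTagaaccgaattt
miR-27, 20 nt: tTCACAGTggctaagttctg
miR-103 and miR-107, 18 nt: aGCAGCATtgtacagggc
miR-25, 20 nt: cATTGCACttgtctcggtct
miR-92b, 20 nt: tATTGCACtcgtcccggcct
miR-320, 20 nt: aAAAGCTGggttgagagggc
miR-182, 20 nt: tTTGGCAAtggtagaactca
miR-25 and miR-92b share a seed. The other 5 lines have seeds of their own.

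The members held 3.40% of all control reads and 3.46% in the knockdown library (ratio 1.02, 1.01 to 1.02). The sign of this small difference depended on which sequences were kept. Without CATGTGGCTTAGAACATG, the member with the most knockdown reads, the ratio was 0.988 (0.983 to 0.992), and without every sequence that held one of the hand-written miRNA, rRNA, tRNA or Y RNA keys it was 0.950 (0.946 to 0.955). The lengths did not move together. Reads of 18 nt numbered 76772 in the control and 96962 in the knockdown library (ratio 1.25, 1.24 to 1.26), and the ratio was 1.09 (1.08 to 1.10) without that sequence. Reads of 19 nt numbered 135981 and 136101, with a ratio of 0.989, and reads of 20 nt numbered 189810 and 181996, with a ratio of 0.947. Just above the length limit, reads of 21 nt had a ratio of 0.927, and reads of 22 nt 0.923.

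Most distinct members were rare, and most reads came from a few. Sequences seen with a single read were 57.7% of the control members and 54.1% of the knockdown members, but held 8.83% and 7.44% of the short reads. The 424 control members with at least 100 reads held 53.7% of the short reads, and the 402 such knockdown members held 57.4%. The 10 most abundant held 16.1% in the control and 19.1% in the knockdown library. On average a member had 6.53 reads in the control and 7.26 in the knockdown library, against 18.4 and 19.2 for a sequence of 21 to 23 nt. Only 17851 members, 17.7%, were seen in both libraries, yet these carried 83.9% of the control and 85% of the knockdown short reads.

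Members began with T more often than with any other base. T came first in 69.9% of the control short reads and 66.1% of the knockdown short reads. Among reads of 21 to 23 nt the share was higher, at 87.6% and 86.0%, and among reads of 24 to 32 nt it was 85.8% and 84.8%. Counting each distinct member once gave 57.4% and 55.8%, so the abundant members began with T more often than the rare ones. The shortest length had the lowest T share, 49.3% of 18-nt reads in the control and 45.1% in the knockdown library.

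The lower T share of the knockdown library went with more reads that began with C. Reads beginning with C were 9.27% of the control and 12.9% of the knockdown short reads, with 37323 and 53641 reads. Relative to all reads of each library, the C-first ratio was 1.42 (1.40 to 1.44), that of T-first reads 0.963, of A-first reads 1.03 and of G-first reads 1.002. Without CATGTGGCTTAGAACATG the C-first ratio was 1.10 (1.09 to 1.12), and without that sequence and all C-first sequences with a key it was 0.945 (0.929 to 0.961). These sequences were not chosen independently of the difference. The sequence left out first was picked for its knockdown reads, and some rRNA keys were written after values were seen. The fall of the ratio thus followed in part from the choice, and is no test of where the C-first difference lay. The sequence left out first also ends with G, and last base G was found in 12.5% of control and 18.2% of knockdown short reads.

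The base composition of the short reads was centred on a median GC content of 47.4% in both libraries, counted over reads. The share of library reads was lower in the knockdown library for members with GC of 0 to 30%, where the ratio was 0.850 (0.813 to 0.888), and for GC of 30 to 40%, where it was 0.896 (0.884 to 0.908). In the middle ranges, with most of the reads, it was 1.07 (1.06 to 1.08) at 40 to 50% and 0.928 (0.921 to 0.935) at 50 to 60%. The ratio thus did not rise steadily with GC. At 60 to 70% GC the ratio was 1.19 (1.17 to 1.20), while reads of 21 to 32 nt in the same range had a ratio of 0.837 (0.833 to 0.841). At 70 to 80% GC both lengths were higher in the knockdown library, with ratios of 1.32 for the members and 1.19 for the longer reads.

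Near the GC limit the values were uneven. Members with GC of 70 to 75% had 8635 control and 8399 knockdown reads (ratio 0.961), and those just inside the limit, with GC of 75 to 80%, had 1781 and 5564 reads (ratio 3.09, 2.92 to 3.26). Much of the latter came from an rRNA fragment described below. Its 18-nt form had 4 control and 915 knockdown reads, and its 19-nt form 32 and 2281. Just outside it, sequences of the same lengths with GC of 80 to 85% had 1387 and 2428 reads (ratio 1.73, 1.62 to 1.85).

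Most reads, but only around every second distinct sequence, began a longer sequence of the same table. Members that are the 5' start of a sequence of 21 to 32 nt held 88.1% of the control short reads (88.0 to 88.2%) and 88.4% of the knockdown short reads (88.3 to 88.5%). Of the distinct members they were 52.6% and 50.8%. A further 4.57% and 3.98% of the short reads matched the 3' end of a longer sequence without beginning one, 0.848% and 0.918% lay inside one, and 6.50% and 6.74% were part of none.

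A longer form was found more often for members with more reads. Among members with a single read, 41.6% in the control and 40.1% in the knockdown table began a longer sequence. Among those with 2 to 9 reads the shares were 63.6% and 59.1%, among those with 10 to 99 reads 93.0% and 92.6%, and among those with at least 100 reads 98.1% and 98.0%. Asking that the longer sequence have at least 10 reads lowered the read share to 73.5% and 74.7%, and asking that it have at least as many reads as the member lowered it to 61.2% and 55.6%. A longer form within 4 nt is not particular to these lengths. Reads that begin a sequence 1 to 4 nt longer were 84.2% of 18-nt, 87.0% of 19-nt and 88.0% of 20-nt control reads, against 90.4% of 21-nt, 94.4% of 22-nt and 94.5% of 23-nt control reads, and the knockdown library gave 86.4%, 87.1%, 87.3%, 89.9%, 93.9% and 94.2%.

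Base composition differed between the positions. T came first in 73.6% of the control and 69.4% of the knockdown reads that began a longer sequence. It came first in 30.9% and 32.2% of the reads that matched only a 3' end, in 40.9% and 40.1% of those inside, and in 50.6% and 45.5% of those part of none. Seen from the other side, 92.8% of T-first control reads began a longer sequence, against 79.8% of A-first, 78.4% of C-first and 66.7% of G-first reads. In the knockdown library these shares were 92.9%, 80.1%, 84.5% and 64.9%. By GC, the start share of control reads was highest at 40 to 50% GC, with 92.1%, and lowest at 0 to 30%, with 76.0%.

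The commonest longer form was usually only a few bases longer. For 81.6% of the control reads that began a longer sequence, and 81.2% of the knockdown ones, the most abundant longer sequence had 21 to 24 nt. The short form was itself the more abundant one for 13.7% of the control and 14.2% of the knockdown members that began a longer sequence, and these held 30.5% and 37.1% of such reads.

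Members that share their first 18 bases share a 5' end and are not independent, so they were also joined into families with all longer sequences that begin with those bases. There were 740 families with at least 100 short reads in both libraries together. In the median family short reads were 22.6% in the control and 22.1% in the knockdown library, with quartiles of 6.94% and 61.2% in the control library. Short reads exceeded longer ones in both libraries in 197 families. These were 88 of the 517 families beginning with T, 52 of the 115 with A, 33 of the 65 with C and 24 of the 43 with G.

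The amount of short reads did not follow the amount of the long form. TTCTGTAGCAACAGTTAAAACGACCCT, the most abundant 27-nt sequence with 668874 control and 683090 knockdown reads, had 18 and 11 short reads with its first 18 bases. That was 0.0269 and 0.0161 short reads per 1000 reads of the long form. The 22-nt form of miR-10b had 29.9 and 61.9 per 1000, the 23-nt sequence TTCCATAGTGACTGTACCAACTT 40.1 and 35.0, and the 24-nt sequence TCTGATTCAACCCTGAGCCTGGCA 190.3 and 183.8. The ratio of short to long reads thus spanned more than 3 powers of 10 among abundant sequences. The first of these was lowest and the last highest in both libraries, while miR-10b stood below the 23-nt sequence in the control and above it in the knockdown library.

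Of all members, 784 had at least 100 reads in both libraries together. By a fold of at least 2, 68 of them (8.67%) were higher in the knockdown library and 76 (9.69%) lower. When the whole interval had to pass the fold, 54 (6.89%) were higher and 38 (4.85%) lower, and with a minimum of 1000 reads 12 and 5 of 92 were. Among all sequences of any length with at least 100 reads, 5.71% of 13658 were higher and 5.68% lower. By the first rule, the members' shares were above this background in both directions. All sequences were counted by that rule only, so the other counts have no background beside them. The median log2 ratio was -0.16 over the members tested and -0.06 over all sequences tested. The T-first members stood near the background, with 27 of 551 higher and 33 lower. The other first bases had more, with 20 higher and 24 lower of 128 members beginning with A, 14 and 14 of 70 beginning with C, and 7 and 5 of 35 beginning with G.

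Among the most abundant T-first members without a known identity, most were lower in the knockdown library. TTCCATGGTGCTGATTCTCT, of 20 nt, had 14464 control and 9266 knockdown reads (ratio 0.633, 0.616 to 0.650). Its 19-nt form, TTCCATGGTGCTGATTCTC, had 10520 and 9514 reads (ratio 0.893, 0.869 to 0.919), and its commonest longer form, of 21 nt, 26842 and 20752. In this family 23-nt reads, 13808 and 12225, were also common, and the short forms were 26.4% of its control and 22.1% of its knockdown reads.

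TCTGATTCAACCCTGAGCCT had 10138 control and 8028 knockdown reads (ratio 0.782, 0.760 to 0.805), while its family's longer reads were nearly even, at 133313 and 132404. TTCCATAGTGACTGTACCA had 3618 and 2912 reads (ratio 0.795, 0.757 to 0.835), against 241422 and 281070 longer reads of its family. All short reads of the second family were even, at 7287 and 7454 (ratio 1.01, 0.978 to 1.04), since its 18-nt reads were higher, at 1210 and 2224. TTCAAAGTCTGTAGAGTC, among the 3 most abundant 18-nt members, was even at 1921 and 1944 reads, while its commonest longer form, of 25 nt, had 19368 and 37678.

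TTGAATCTGGGCTCCAACTC differed from these in being mostly short. It had 4257 control and 5605 knockdown reads (ratio 1.30, 1.25 to 1.35). All short reads of its family numbered 5023 and 6258, against 2684 and 5140 longer ones, so short forms were 65.2% of the family in the control and 54.9% in the knockdown library. The longer forms were nearly all of 1 length, 21 nt, with 2636 and 4919 reads.

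CATGTGGCTTAGAACATG was the most abundant member of the knockdown library. It had 5413 control and 17961 knockdown reads (ratio 3.28, 3.18 to 3.38), and was 4.33% of all knockdown short reads. Longer reads with its first 18 bases were few, 87 in the control and 325 in the knockdown library, so that 98.4% and 98.2% of its family was short. Its identity is not known here.

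The sequence also recurred with other 5' ends. In the following lines the 13 bases shared by all of them are in capitals.
18 nt: catgtGGCTTAGAACATG
19 nt: acatgtGGCTTAGAACATG
20 nt: tacatgtGGCTTAGAACATG
21 nt: ctacatgtGGCTTAGAACATG
22 nt: catgtGGCTTAGAACATGtccg
The 19-nt form had 1016 and 3436 reads, the 20-nt form 114 and 400, the 21-nt form 180 and 951, and the 22-nt form 83 and 300. In all, 87 members ended with the same 13 bases, with 6687 control and 22338 knockdown reads. The 18-nt sequence itself held most of these reads. The full 18-nt sequence ended 11 of the 87, with 6550 and 21833 reads, and the others differed from it in bases before the shared 13. Over the 87 the ratio was 3.28 at 18 nt, 3.39 at 19 nt and 3.40 at 20 nt, so the higher level was shared by the 3 lengths. In the forms of 18 to 21 nt shown, the 3' end was held and the 5' end varied. The T-first families above were joined by their 5' end, so in them the 5' end was shared by construction. The first 5 bases of the 18-nt form, CATGT, are the reverse complement of its last 5, which holds for 68 of the 100969 members, or 0.0673%.

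Short forms with the first bases of conserved miRNAs were higher in the knockdown library in total, and their longer forms in total were not. Single miRNAs differed from this total, as given below. Of 73 keys, each the first 14 bases of 1 miRNA or of a few that share them, 59 had short reads. Together they had 19756 control and 39249 knockdown short reads (ratio 1.96, 1.93 to 1.996), and 707507 and 707189 reads of 21 to 26 nt (ratio 0.987, 0.984 to 0.991). Without miR-10b the short ratio was 1.87 (1.83 to 1.92). Members without a miRNA key had a ratio of 0.970 (0.965 to 0.974). Among the 784 members tested, 37 held a miRNA key, of which 15 were higher by that rule and 0 lower, with a median log2 ratio of 0.40.

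The difference between the libraries grew as the miRNA forms became shorter. Reads with a miRNA key had a ratio of 4.25 (3.98 to 4.55) at 18 nt, 2.48 (2.40 to 2.57) at 19 nt, 1.63 (1.59 to 1.66) at 20 nt, 1.14 (1.12 to 1.15) at 21 nt, 1.02 at 22 nt, 0.920 at 23 nt and 0.900 at 24 nt. Without miR-10b the order of the 3 short lengths was not kept, with ratios of 2.85 at 18 nt, 1.35 at 19 nt and 1.97 at 20 nt, and 1.004 at 21 nt. Reads without a miRNA key had ratios of 1.20, 0.938 and 0.892 at 18, 19 and 20 nt.

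miR-10b, a miRNA coded within a Hox gene cluster, gave the largest part of these short reads. Its 18-nt form, TACCCTGTAGAACCGAAT, had 391 control and 2687 knockdown reads (ratio 6.79, 6.10 to 7.57). The 19-nt form, TACCCTGTAGAACCGAATT, had 1827 and 7573 reads (ratio 4.09, 3.89 to 4.31). The 20-nt form had 7312 and 9758 reads (ratio 1.32, 1.28 to 1.36), and the full 22-nt form was even, with 318321 and 323333 reads. Short forms of the family were 2.54% of its control and 4.997% of its knockdown reads.

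miR-103 and miR-107, whose first bases are the same, had the largest ratio of short forms relative to that of longer forms among the 25 miRNA families compared below. The 18-nt form had 30 control and 1109 knockdown reads (ratio 36.5, 25.4 to 54.4). The 23-nt form had 253 and 202 reads (ratio 0.789, 0.652 to 0.953). In the control library the 23-nt form was the more abundant of these, and in the knockdown library the 18-nt form was. Over all short forms the ratio was 13.4 (11.0 to 16.4).

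For miR-27 the short form was the main form in both libraries. TTCACAGTGGCTAAGTTCTG had 1047 control and 5132 knockdown reads (ratio 4.84, 4.53 to 5.18), and the same sequence with 1 more base, of 21 nt, had 168 and 530 reads (ratio 3.12, 2.61 to 3.73). Here short and longer forms were both higher in the knockdown library. The short shift was larger than that of the longer form.

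miR-25 and miR-92b, relatives that share their seed, were also higher in both forms. The 20-nt form of miR-25 had 104 control and 528 knockdown reads (ratio 5.01, 4.06 to 6.25), and its 22-nt form 383 and 819 (ratio 2.11, 1.87 to 2.39). The 20-nt form of miR-92b had 233 and 936 reads (ratio 3.97, 3.43 to 4.60), and its 22-nt form 457 and 884 (ratio 1.91, 1.70 to 2.14). miR-92a, of the same seed, had a 19-nt form with 23 and 66 reads and a 24-nt form that was lower in the knockdown library, with 4993 and 3624 reads.

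In miR-320, miR-181a and miR-99b the short form was higher while the long form was not, or less so. The 20-nt form of miR-320 had 93 control and 503 knockdown reads (ratio 5.34, 4.27 to 6.74), and its 24-nt form 559 and 326 (ratio 0.576, 0.501 to 0.662). The 19-nt form of miR-181a had 5 and 98 reads, and its 23-nt form 336 and 427 (ratio 1.26, 1.09 to 1.45). The 18-nt form of miR-99b had 1 and 74 reads, and its 22-nt form 232 and 114 (ratio 0.485, 0.384 to 0.610). The control counts of the last pair of short forms are small, so these ratios are imprecise.

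Of the 14 miRNA keys whose short forms were higher by a fold of 2 or more, 6 had longer forms higher by as much, and 8 did not. Among the 6 was miR-143, which had 134 control and 632 knockdown short reads (ratio 4.66, 3.86 to 5.66) and longer reads with a ratio of 4.93 (4.14 to 5.91). miR-143 is known from smooth muscle and stromal cells. It was almost the whole of the stromal and vascular list of 7 keys, of which 4 had short reads. That list had 136 and 639 short reads (ratio 4.64) and 191 and 828 longer reads (ratio 4.28), with miR-145 and miR-214 at 0 short reads in both libraries. The 5 granulosa keys had 23 and 34 short reads and 5548 and 7217 longer ones (ratio 1.28). Nearly all of these longer reads, 5448 and 7137, were of miR-21-5p. The other keys of that list had few longer reads and differed in direction. They were miR-383 with 43 and 24, miR-132 with 50 and 39, miR-212-3p with 6 and 7, and miR-202-5p with 1 and 10. The part of other cell types in the miRNA values was not tested. miR-10a (4.27 for short, 3.99 for longer reads) and miR-423-5p (2.45 and 3.02) were likewise higher in both forms.

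Other miRNAs did not follow this pattern. The 20-nt form of miR-182, from the cluster of miR-183, had 2111 control and 1774 knockdown reads (ratio 0.830, 0.779 to 0.885), close to the 0.881 of its 24-nt form, with 112831 and 100604 reads. The let-7 keys together had 537 and 518 short reads (ratio 0.953, 0.843 to 1.08), while their longer reads had a ratio of 1.18. The 20-nt form of miR-128 had 995 and 1106 reads (ratio 1.10), and that of miR-205, an epithelial miRNA, 371 and 324 reads (ratio 0.863). Of the 26 miRNA keys with at least 100 short reads, 14 were higher by a fold of 2 or more and 1, miR-183, was lower by as much.

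Short forms were next set against longer forms with the same 5' end. This was possible for 582 families with at least 100 short and at least 100 longer reads and with both forms in both libraries. The ratio of the short reads divided by the ratio of the longer reads was at least 2 in 11 of 25 families with a miRNA key, or 44.0%, and at most 0.5 in 0 of them. Among the 541 families without any key, it was at least 2 in 17, or 3.14%, and at most 0.5 in 34, or 6.28%. The keys were written with earlier results of these data known, so these counts are a description of the families and no independent evidence.

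Of the 17 families without a key, the one with the largest such value was AGCTCGGTCTGAGGCCCC. It had 4 control and 211 knockdown short reads, against 425 and 907 longer ones. Its bases are those with which miR-423-3p begins, an arm that was not among the keys and is named here after its values were seen. The short reads of CCCACAACCACGTTTGAC, of no known identity here, numbered 9 and 1321, against 108 and 805 longer ones. At the other end, CGGAGCGCTGAGAAGACG had 27 and 110 short reads against 12 and 361 longer ones.

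Fragments of rRNA, the RNA of the ribosome, were the other class that could be named. The 4 keys inside 28S rRNA were written after values were seen, so totals over the class depend partly on that choice. The 10 rRNA keys had 25783 control and 32284 knockdown short reads (ratio 1.24, 1.22 to 1.26). Their longer reads, of 21 to 26 nt, had a ratio of 1.52 (1.505 to 1.53). Most of these were from the 3' end of 5S rRNA, with 96282 and 158519 reads (ratio 1.63, 1.61 to 1.64). For the other keys the ratio of longer reads ranged from 0.610 to 11.2, so the total does not describe each of them. Without the 4 interior keys the short reads numbered 18983 and 21335 (ratio 1.11, 1.09 to 1.13), and 2 of 25 members tested were higher by the 2-fold rule and 0 lower. Over all sequences tested, 5.71% were higher and 5.68% lower. With so few members, these counts are not read as a trait of the class.

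The 3' end of 5S rRNA was the largest part, with 11093 control and 12976 knockdown short reads (ratio 1.16, 1.13 to 1.19). Its member ATACCGGGTGCTGTAGGCTT, the most abundant that began with A, was even at 3048 and 3097 reads. The 3' end of 5.8S rRNA was lower, at 3173 and 2398 reads, and held the most abundant G-first member, GCCTGTCTGAGCGTCGCT, with 2043 and 1366 reads (ratio 0.660, 0.616 to 0.708). The 5' end of 28S rRNA was higher, at 1658 and 2985 reads (ratio 1.78, 1.67 to 1.89).

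Inside 28S rRNA, 4 stretches were followed, and they moved in different directions. One, with the member AGCGCACGTGTTAGGACC at 2377 control and 2833 knockdown reads, had a ratio of 1.31 (1.26 to 1.36). Another had 2251 and 1058 short reads (ratio 0.464, 0.431 to 0.4997). The third had 42 and 3281 short reads (ratio 77.2, 57.0 to 107.3), and its 18-nt member, GGCGGCGACTCTGGACGC, with a GC content of 77.8%, had 4 and 915 reads. The fourth had 26 and 680 short reads (ratio 25.8, 17.5 to 39.8), and its longer reads were higher too, with a ratio of 11.2 (6.73 to 20.1). GGCGGCGACTCTGGACGC lies close to the GC limit, in the range of 75 to 80% GC, which was higher in the knockdown library. Its own reads are part of that range, as are those of its 19-nt form, with 32 control and 2281 knockdown reads. The range had 1781 and 5564 reads in all, so it is no independent background for this member.

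The order of the largest ratios depended on how a count of 0 was treated. With counts set to at least 3 reads, the first was GGCGGCGACTCTGGACGC, given above. It was followed by CCCACAACCACGTTTGACTG, with 7 control and 1093 knockdown reads (ratio 154.2, 74.6 to 384.5), and TCCACCACGTTCCCGTGG, with 17 and 2477 reads (ratio 143.9, 89.7 to 247.5). Both are of no known identity here. Then came TCCCGTGGATCGCCCCAGC of 28S rRNA, with 3 and 366 reads, and the 20-nt form of miR-130a, with 3 and 286. With 0.5 reads added to each count, 4 members with no control read were placed among the first 5. CCCGTGGATCGCCCCAGC, from the last of those 28S stretches, had 0 control and 165 knockdown reads. Set against a floor of 3 reads, this was at least 54.3-fold higher. TCGTACGACTCTTAGCGG, which holds the 5' start of 5.8S rRNA, had 0 and 103 reads, at least 33.9-fold higher. The key for the 5' end of 5.8S rRNA as a whole had 2368 control and 2066 knockdown short reads (ratio 0.862, 0.812 to 0.915). Its 18-nt reads numbered 2148 and 1783. Short reads of that 5' end were thus common in both libraries and in total not higher in the knockdown library. Neither of the other 2 members absent from the control library was identified. CCCCTGGCCTGGGAACTTCC had 0 and 104 reads, at least 34.2-fold higher, and its commonest longer form, of 27 nt, had 1 and 509 reads. AAAGCGTCGCGGTTCCGGCG had 0 and 102 reads, at least 33.6-fold higher, and its longer form of 22 nt had 6 and 88. The longer form of CCCGTGGATCGCCCCAGC, of 25 nt, had 0 and 32 reads.

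In the other direction, TACAGTGGCTGTGGCTCGAC had 238 control and 0 knockdown reads, at least 80.3-fold lower. Its longer form of 23 nt had 1583 and 0 reads, and all longer reads of its family numbered 5989 and 2, so the family as a whole was nearly absent from the knockdown library. CGAAGATGGATTCCAGAGCA had 101 and 11 reads, 9.30-fold lower, and TATCCTGAATTCCATTGAGC had 153 and 19 reads, 8.15-fold lower. Their commonest longer forms were lower likewise, with 93 and 9 reads and with 193 and 47 reads. GCGCGCGAGAGGGACGGGA had 87 and 16 reads, 5.50-fold lower. AATCCCGGACGAGCCCCCA, 9.03-fold lower with 12 knockdown reads, ends with CCA.

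A mature tRNA carries CCA at its 3' end, so members that end with CCA were counted. They held 2.38% of the control and 1.99% of the knockdown short reads. Among the reads that matched only the 3' end of a longer sequence they were 12.3% and 9.65%, against 1.88% and 1.67% among reads that began one. Of the 12 most abundant members that end with CCA, 4 had a ratio whose interval lay below 1, 5 above 1, and 3 holding 1. Examples of each follow, with CCA in capitals.
18 nt, lower in the knockdown library: atcccggacgagcccCCA
20 nt, lower in the knockdown library: aggtccctgttcgggcgCCA
18 nt, higher in the knockdown library: atcccatcctcgtcgCCA
18 nt, interval holding 1: aaccgggcggaaacaCCA
The first had 360 control and 143 knockdown reads (ratio 0.392, 0.321 to 0.478). The second had 336 and 172 reads (ratio 0.506, 0.418 to 0.609). The third had 188 and 275 reads (ratio 1.44, 1.20 to 1.75). The last had 207 and 243 reads (ratio 1.16, 0.959 to 1.40), while sequences of 21 to 32 nt that end with it had 1803 and 2022. Not every such end marks a tRNA: TACCTGGTTGATCCTGCCA, with 161 and 213 reads, is the 5' start of 18S rRNA, and TTCCATAGTGACTGTACCA is the beginning of the 23-nt sequence shown in the first set. No genome or tRNA table was used, so none of these was assigned to a tRNA. The 6 keys for 5' ends of tRNAs had only 9 and 23 short reads, against 3351 and 3706 reads of 21 to 26 nt.

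Of the 784 members tested, 17 began no longer sequence in either library. The most abundant was AGGCGAGCTCAGGGAGGAC, with 272 control and 204 knockdown reads (ratio 0.741, 0.615 to 0.892). TAGACTACTCTGGCTTGCC had 260 and 132 reads, 1.99-fold lower, and CTAATGGATAAGGCACTG had 271 and 86 reads, 3.19-fold lower. TCATCACGTCGGGGTCACCA, which ends with CCA, had 121 and 199 reads (ratio 1.62, 1.29 to 2.05). GTGGCTTAGAACATGTCCG, which overlaps the most abundant knockdown member and runs 4 bases past its end, had 83 and 178 reads (ratio 2.12, 1.62 to 2.78). In the control library all 5 were the 3' end of a longer sequence.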

How the data were processed

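Total RNA was turned into small RNA libraries by adapter ligation, reverse transcription, PCR and gel purification, per the labels' protocols. The authors deposited, for each library, the raw count of every distinct sequence of 18 to 44 nt. The submitters' processing notes name Bowtie2. Version, role, genome build and trimming are not given in the sources used here. No genome or miRNA table was used, so no coordinates are given.

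Ratios compare shares of all library reads. Shares have Clopper-Pearson and ratios exact conditional 95% intervals. A call needed a fold of 2 and 100 reads summed over both libraries. A count of 0 was set to 3 reads over the library. Members beginning, ending or lying inside a sequence of 21 to 32 nt were found by exact match within a table, in that order. The 90 keys (73 miRNA, 10 rRNA, 6 tRNA, 1 Y RNA) of 13 to 14 nt were written from background knowledge, the rRNA interior ones after values were seen. The members, lists and keys were chosen with earlier results of these data known. Named members were the 10 most abundant, the 5 largest ratios each way (with 0.5 reads added for the order), the 3 most abundant per length, the most abundant per first base, and the 5 most abundant that began no longer sequence or held a miRNA key. Other named sequences, among them longer forms, family extremes and CCA ends, were picked after their values were seen. The calls and matches were tested on simulated data. Alternatives covered the denominator, rare and abundant sequences, GC and length limits, the longer sequence required, read minimums and scaling. Scripts ran in Python 3.11.15 with scipy 1.17.1, pandas 2.3.3 and numpy 2.4.6.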

Additional observations from a re-analysis of the deposited data

Results flagged for a closer look

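Sequences of 18 to 20 nt with a GC content of 80% or more lay outside the comparison. There were 521 of them with 1978 reads in the control library and 964 with 13444 reads in the knockdown library. Their share of all reads had a knockdown to control ratio of 6.71 (6.40 to 7.04), against 1.02 for the members with less GC. They are listed as a signal outside the main measurement that was above the control. With 1 library per group, the difference was not tested.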

How the results depend on the processing

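The log2 ratio of the short share, 0.0263, was small enough for its sign to depend on the members kept. It was 0.0342 relative to reads of 18 to 32 nt with GC below 80%, 0.0419 without single-read sequences and 0.0652 with no GC limit. It reversed to -0.0358 without the 10 most abundant members, -0.0132 with a GC limit of 60% and -0.0523 at 19 to 20 nt. Of 2 alternatives chosen after seeing the data, it was -0.0180 without the most abundant knockdown member and -0.0734 without sequences that hold a key.

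The T-first share, 69.9% in the control and 66.1% in the knockdown library, was 57.4% and 55.8% over distinct sequences, 66.9% and 64.4% without the 10 most abundant, 75.1% and 72.2% with a GC limit of 60%, and 74.7% and 72.4% at 19 to 20 nt. It stayed lower in the knockdown library under each of these.

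The share that began a longer sequence, 88.1% and 88.4%, was 73.5% and 74.7% when the longer sequence needed at least 10 reads, 61.2% and 55.6% when it needed at least as many reads, 87.0% and 87.6% when it had 21 to 26 nt, 52.6% and 50.8% over distinct sequences, and 85.9% and 85.6% without the 10 most abundant.

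The 68 higher and 76 lower members became 12 and 5 of 92 with a minimum of 1000 reads and 338 and 547 of 3262 with a minimum of 20, where fewer or more members are tested. Scaled to short reads they were 66 and 84. When the interval had to pass the fold they were 54 and 38. Sequences of all lengths were not counted under these alternatives, so the counts have no background beside them. No paired analysis was possible because each group had 1 library, and no library could be left out. Depth limited the comparison to members with at least 100 reads, since a single read lies below the floor of 3.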
